A study of Mus musculus with 20 samples.

Results

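The genes that encode integrin subunits were followed in cultured mouse dorsal root ganglion (DRG) neurons under 2 patterns of electrical stimulation. They were chosen by name: every probe that is not a control and whose gene name is Itga3, Itga4, Itga5, Itga6, Itga7, Itga9, Itgav, Itgb1, Itgb5 or Itgb8. These 10 genes are among 30222 gene names on the array and have 14 of its 39429 probes. The cultures came from NIH Swiss mouse embryos of embryonic day 13.5 and were grown in compartmented chambers on collagen with nerve growth factor, with fluorodeoxyuridine given against dividing non-neuronal cells. All cultures, the unstimulated ones included, spent the night before stimulation without nerve growth factor and serum. The 5 conditions were unstimulated neurons, the 18/1 pattern (a burst of 18 action potentials each 1 min) for 2 hr or 5 hr, and the 90/5 pattern (a burst of 90 each 5 min) for 2 hr or 5 hr. Over time both patterns deliver action potentials at the same average rate. The methods describe each condition as 5 pooled cultures, while the study also counts 4 replicate experiments per condition and calls the samples biological replicas. How the pools and the replicates relate was not settled here, and the p-values measure the spread between these samples.

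Integrins are receptors for the extracellular matrix made of 1 alpha and 1 beta subunit. The alpha subunit largely sets which matrix protein is bound, and the tail of the beta subunit links to talin, kindlin and other adaptors that connect to actin and to kinases such as focal adhesion kinase. In sensory neurons, integrins that contain beta1 carry the outgrowth of axons on laminin and fibronectin, and Schwann cells, fibroblasts and endothelial cells use many of the same subunits.

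RNA was hybridized to 10 Agilent arrays with 60-base probes. Each array carried 2 samples of 1 condition, 1 in Cy3 and 1 in Cy5, which gave 4 samples on 2 arrays per condition. Arrays 1 to 4 on slide 1 held the unstimulated and the 18/1 2 hr samples. Arrays 5 to 8 on slide 2 held the 18/1 5 hr and the 90/5 2 hr samples, and arrays 9 and 10 on slide 3 held the 90/5 5 hr samples. Slide and condition can therefore be separated only for 18/1 2 hr against unstimulated neurons and for 90/5 2 hr against 18/1 5 hr. In every other comparison they cannot be told apart. Between 5454 and 14917 spots per sample were marked non-uniform in 18/1 5 hr and between 53 and 6634 in 90/5 2 hr, against at most 89 in the other conditions. The median signal over background ranged over samples from 2.27 to 2.94 for slide 1, from 3.64 to 10.4 for slide 2, and from 2.66 to 4.91 for slide 3. All 16 markers of DRG neurons were well above background in all 20 samples. The same held for 6 of 10 markers of Schwann and satellite cells and for 6 of 8 of fibroblasts. The methods name spinal cords as the tissue from which the neurons were dissociated, while the samples are labelled DRG neurons. Of 9 markers of spinal cord cells, 0 were well above background in all 20 samples. Each was in some, from 2 samples for Lhx3 to 19 for Aqp4.

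Several integrin genes have a pair of probes, and for Itgb1 and Itgav the members of the pair behaved differently. The first 30 bases of each probe of a pair are given 5′ to 3′, with those of the Itga3, Itga5 and Itga9 probes, because the results below rest on them.
Itga3, probe A_55_P1974421: aagagcaatgaactagaaagcaggtcgccg
Itga5, probe A_52_P364140: gggttgatctggagcccagtctcggattct
Itga9, probe A_51_P382970: taccttcagctttgtgtagccaaaaaagcc
Itgb1, probe A_66_P113059: gacacgggtgaaaatcctatttacaagagt
Itgb1, probe A_52_P351816: tggacgcttactgcaggaaagagaacagtt
Itga6, probe A_55_P2015670: gagaatgagaacctgggaggtcttgttgtt
Itga6, probe A_55_P1958840: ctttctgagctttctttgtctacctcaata
Itgav, probe A_51_P382484: gggaatttagtggcaaagtatatattggta
Itgav, probe A_55_P2039771: tttgcacaggcacttagaacaggtacacat
Itga4, probe A_55_P2040026: gtgtgtggaatgcattataaagatctaaca
Itga4, probe A_66_P140103: taagatcttagacctggaagagaaacaaat
No base is capitalized because no motif is claimed in them. In the mm9 build that the array files name, the Itga3 probe lies at chr11:94906334-94906393 on the minus strand, the Itga5 probe at chr15:103175022-103175081 on the minus strand and the Itga9 probe at chr9:118807900-118807959 on the plus strand. The Itgb1 probe A_66_P113059 lies at chr8:131250081-131255976, where its 60 bases are spread over 5896 bases of the genome. The second Itgb1 probe lies upstream of it at chr8:131246349-131246408. The Itga6 probes lie at chr2:71694756-71694815 and chr2:71690633-71690692, and the Itgav probes at chr2:83646133-83646192 and chr2:83643905-83643964. The Itga4 probes lie at chr2:79173193-79173252 and chr2:79153985-79155115, the latter spread over 1131 bases. An exon annotation of this build was not used here.

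The clearest differences of the integrin genes lay in the 18/1 5 hr samples. In the test over all genes, 3 of the 6 members that passed the spot filter in all 20 samples fell at 18/1 5 hr against unstimulated neurons, Itga3, Itgb1 and Itga9, and 0 rose. Of all 10355 genes tested, 44.4% passed the same test, 29.5% lower and 15% higher, so 3 of 6 members is close to the share among all genes. Values are log2 of the normalized signal, the test is limma's with Benjamini-Hochberg adjustment at 0.05, and a difference in log2 signal of 1 is a doubling. With the spot filter asked for in all 4 samples of at least 1 condition, 9 members could be tested. Itga5 and Itgav passed that filter only through conditions where they were brighter than at 18/1 5 hr, and Itga4 only through 90/5 5 hr, so their differences are given as fitted values. Calls and p-values printed for these members describe the fit and are not read as tests. In that fit 23.3% of 18744 genes were lower at 18/1 5 hr and 13.5% higher, and the members are not read against these shares. Itgb8 was not tested. RNA of pooled cultures was measured, so fewer cells of a type and less RNA per cell cannot be told apart.

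Itga3 encodes the alpha subunit that pairs with beta1 into a receptor for laminins. The 4 unstimulated samples had log2 signals of 10.29 and 10.43 on array 1 and 10.20 and 10.38 on array 2. After the 18/1 pattern they were 9.19, 9.48, 10.17 and 9.56 at 2 hr and 8.02, 7.95, 8.05 and 7.67 at 5 hr. After the 90/5 pattern they were 9.31, 9.70, 8.74 and 8.56 at 2 hr and 9.45, 9.74, 10.17 and 9.85 at 5 hr. All 16 stimulated samples lay below the 4 unstimulated ones, and the 18/1 5 hr samples lay below every sample of the other conditions. Itga3 fell by 2.40 on the log2 scale at 18/1 5 hr (SE 0.31, 95% interval -3.05 to -1.75, adjusted p = 9.61e-06). At 90/5 2 hr it fell by 1.25 (SE 0.31, 95% interval -1.90 to -0.60, adjusted p = 0.0182). The differences of -0.73 at 18/1 2 hr and -0.52 at 90/5 5 hr did not pass the test, although no sample overlapped the unstimulated ones. With the replicate number as a block over the 18/1 2 hr and unstimulated samples alone, the former passed (adjusted p = 0.0423). The fall at 18/1 5 hr held in all 45 other settings tried, between -2.63 and -2.29. The call at 90/5 2 hr was lost without array 1 (adjusted p = 0.223), array 2 (0.173), array 8 (0.264) or the Cy5 sample of array 10 (0.0584), where the difference ranged from -1.28 to -0.82.

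Itga6 and Itga7 encode the other laminin-binding alpha subunits on the list, of which alpha7 is induced in sensory and motor neurons after nerve injury. The tested Itga6 probe had log2 signals of 8.77, 9.24, 8.90 and 9.76 in unstimulated neurons, and of 9.31, 9.07, 10.11 and 9.84 at 18/1 5 hr. In the other conditions it lay between 8.64 and 9.76, so that all conditions overlapped. Its difference at 18/1 5 hr was 0.41 (95% interval -0.36 to 1.19, adjusted p = 0.388). The second Itga6 probe had 8.40, 8.53, 8.88 and 9.18 in unstimulated neurons and 9.82, 9.29, 9.93 and 9.93 at 18/1 5 hr. These 4 samples lay above all unstimulated samples, and the probe rose by 1.00 (SE 0.38, adjusted p = 0.0467) in the fit of every probe, where 12.5% of 23905 probes rose. Itga7 was bright, with 14.81, 14.96, 14.44 and 14.93 in unstimulated neurons and 14.19, 14.62, 14.26 and 14.39 at 18/1 5 hr, 2 of the latter being saturated. Its lowest value was 14.11 at 90/5 2 hr and its highest 15.24 at 90/5 5 hr. The difference of Itga7 at 18/1 5 hr, a fitted -0.42 that is not exact because of the saturated spots, did not pass (adjusted p = 0.211).

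Itga5 and Itgav encode the alpha subunits of receptors for fibronectin and vitronectin, which recognise an arginine-glycine-aspartate motif. Itga5 had log2 signals of 10.10, 10.61, 10.03 and 10.58 in unstimulated neurons. At 18/1 5 hr it had 8.79 and 8.90 on array 5, where both spots were marked non-uniform, and 8.69 and 8.81 on array 6, where neither was. The conditions 18/1 2 hr, 90/5 2 hr and 90/5 5 hr lay between 9.55 and 10.50, so the 18/1 5 hr samples were below all 16 others. The fitted difference of Itga5 was -1.53 (SE 0.24, 95% interval -2.03 to -1.04). It is not read as a test, because of the way Itga5 passed the filter. The brighter Itgav probe had 7.95, 8.46, 8.09 and 8.34 in unstimulated neurons and 6.76, 6.54, 7.57 and 7.58 at 18/1 5 hr, the last pair marked non-uniform. The array 5 pair was not well above background, so no sample of this condition was both well above background and free of the mark. All 4 were below the unstimulated samples, and the fitted difference, which is no exact fold because of the array 5 pair, was -1.10 (SE 0.38). Its call in that fit (adjusted p = 0.0304) is not read as a test, because of the way Itgav passed the filter. Without array 5 the difference was -0.63 (adjusted p = 0.14), and the call was also lost without array 1 (0.148), array 2 (0.155), array 4 (0.062), or the Cy5 sample of array 1 (0.0523) or of array 10 (0.0537). The second Itgav probe went the other way. It was not well above background in any sample outside 18/1 5 hr, where it had 10.20 and 10.43 on array 5 and 6.90 and 6.96 on array 6, with 3 of these 4 spots marked. On the mean of these 4 spots, its bound at 18/1 5 hr was at least 3.65-fold over unstimulated neurons (fitted log2 difference 1.87). That bound rests on the marked array 5 pair, while the 1 unmarked sample, at 6.90, was close to the highest unstimulated value of 6.89. The probe passed the filter only through 90/5 2 hr, where it was not well above background. Its call in the fit of every probe (adjusted p = 0.0174) is therefore not read as a test. A bound is used because a probe at background has only an upper limit.

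Itga4 and Itga9 encode closely related alpha subunits that bind fibronectin variants, tenascin and cell-surface ligands. The brighter Itga4 probe had 7.34, 7.34, 7.54 and 7.89 in unstimulated neurons and 7.22, 7.25, 7.45 and 7.28 at 18/1 2 hr. At 18/1 5 hr it had 10.54 and 11.16 on array 5 and 8.27 and 8.56 on array 6, with every spot but the 8.27 marked non-uniform. At 90/5 2 hr it had 7.14 and 7.26 on array 7 and 8.63 and 8.78 on array 8, and at 90/5 5 hr 7.08 and 7.68 on array 9 and 8.93 and 8.85 on array 10. The array 7 pair was not well above background. In these 3 conditions, values of an array thus resembled each other more than those of a condition. The 18/1 5 hr samples all lay above the unstimulated ones. The fitted difference of Itga4 was 2.11 (SE 0.59, 95% interval 0.88 to 3.33). Its call in that fit (adjusted p = 0.00907) is not read as a test, because of the way Itga4 passed the filter. Without array 5 the difference was 0.89 (adjusted p = 0.185), and without array 1 it was 1.92 (adjusted p = 0.0913). The second Itga4 probe was well above background in 2 of 20 samples, both on array 6 at 18/1 5 hr. In that condition it lay between 6.79 and 6.97, with 3 of 4 spots marked non-uniform, against 6.45 to 6.61 in unstimulated neurons, and no fold is given.

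Itga9 gave 9.82, 9.65, 9.96 and 9.54 in unstimulated neurons and 8.48, 8.42, 9.22 and 9.23 at 18/1 5 hr. At 18/1 2 hr it gave 9.49, 9.69, 10.10 and 9.31, at 90/5 2 hr 9.25, 9.62, 9.10 and 8.87, and at 90/5 5 hr 9.64, 9.70, 10.32 and 9.86. The 18/1 5 hr samples were below all unstimulated and all 90/5 5 hr samples and overlapped those of 90/5 2 hr. Itga9 fell by 0.91 (SE 0.31, 95% interval -1.55 to -0.27, adjusted p = 0.0206) at 18/1 5 hr. Without array 5 the difference was -0.52 (adjusted p = 0.184), and without array 1 or array 2 the adjusted p was 0.112 or 0.109.

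Itgb1 encodes beta1, the common partner of alpha3, alpha4, alpha5, alpha6, alpha7 and alpha9. Its brighter probe had 12.36, 12.67, 12.75 and 12.73 in unstimulated neurons and 12.60, 13.02, 12.72 and 13.07 at 18/1 2 hr. At 18/1 5 hr it had 10.40 and 10.28 on array 5 and 11.23 and 11.46 on array 6. The 90/5 samples had 12.35, 12.67, 11.60 and 12.09 at 2 hr and 12.68, 12.77, 11.43 and 12.85 at 5 hr. The 18/1 5 hr samples lay below all others except that the Cy3 sample of array 10 at 90/5 5 hr, with 11.43, lay just under the highest of them, 11.46. This probe fell by 1.79 at 18/1 5 hr (SE 0.37, 95% interval -2.55 to -1.02, adjusted p = 0.00068) and was called in all 45 other settings, between -2.42 and -1.28. The second Itgb1 probe did not show this difference. It had 9.32, 9.34, 9.53 and 9.61 in unstimulated neurons and, at 18/1 5 hr, 9.47 and 9.85 on array 5, both marked non-uniform, and 8.85 and 8.83 on array 6. The unmarked pair lay below all unstimulated samples and the marked pair within or above them, and the difference was -0.20 (SE 0.27, adjusted p = 0.582). Both Itgb1 probes have 45% GC.

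**Figure D1:**
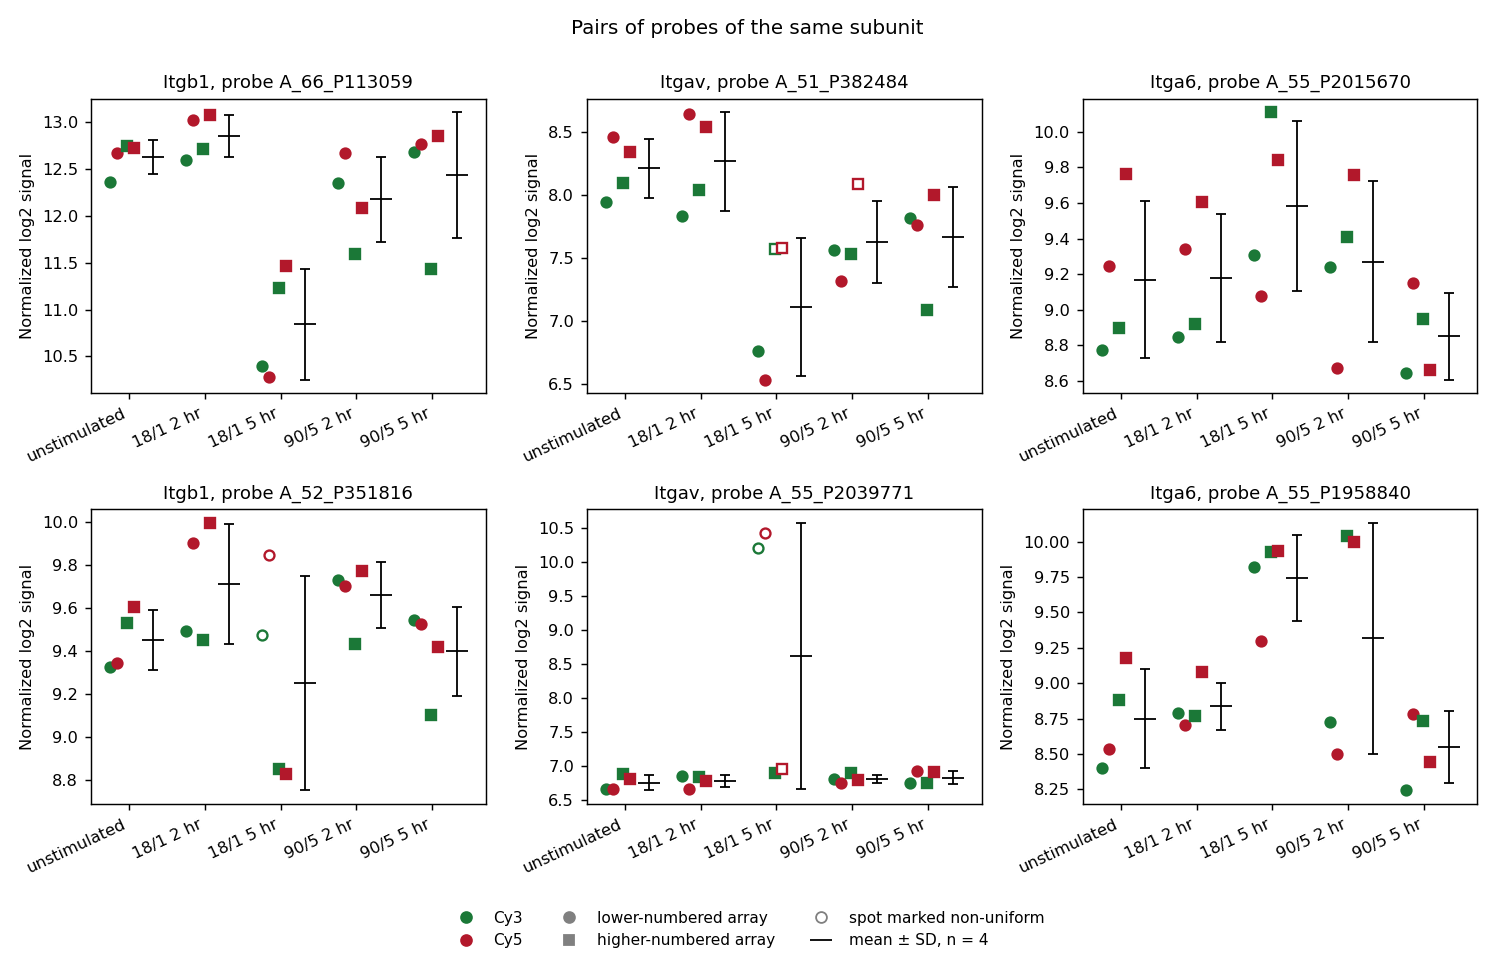
Normalized log2 signal of both probes of Itgb1, Itgav and Itga6 in each of the 20 samples by condition, the brighter probe above, with colour for the dye, shape for the array, open symbols for spots marked non-uniform, and mean ± SD (n = 4). At 18/1 5 hr the brighter Itgb1 and Itgav probes lie below the unstimulated samples, the second Itgav probe is high on array 5 alone, and the second Itga6 probe lies above the unstimulated samples.

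Itgb5 encodes the beta subunit that pairs with alphav. It had 11.30, 11.53, 11.35 and 12.41 in unstimulated neurons, 11.11, 10.37, 11.67 and 11.45 at 18/1 5 hr, and between 10.87 and 12.44 in the other conditions. All conditions overlapped, and no difference passed the test, that at 18/1 5 hr being -0.50 (95% interval -1.47 to 0.47, adjusted p = 0.403). Only when each sample was centred on its median did Itgb5 pass, at -1.23 for 18/1 5 hr against unstimulated neurons (adjusted p = 0.0164), and this scaling also moves the median of all genes, as given below. Itgb8 encodes another partner of alphav. Its probe lay between 6.25 and 6.65 in all 20 samples and was not well above background in any.

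**Figure D2:**
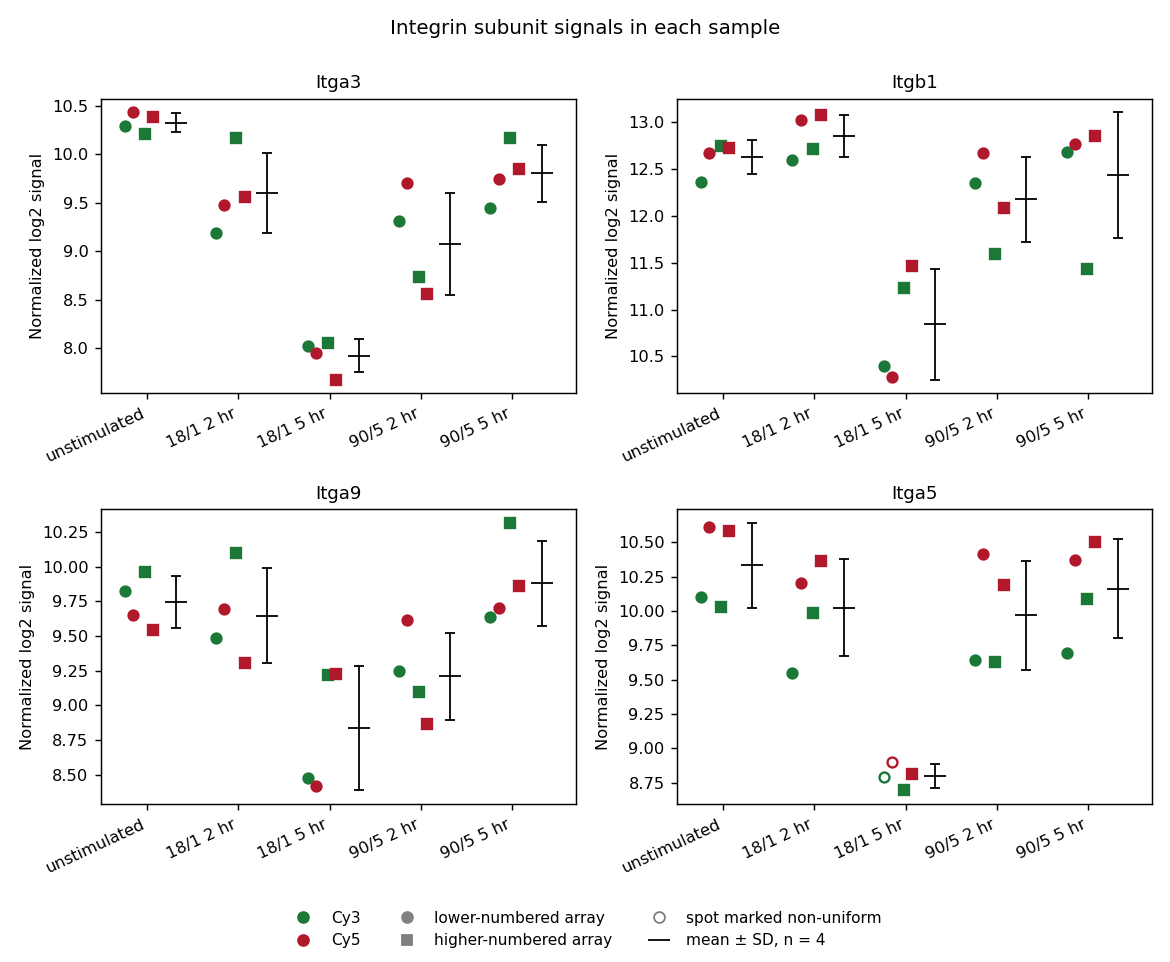
Normalized log2 signal of Itga3, Itgb1, Itga9 and Itga5 in all 20 samples by condition, with colour for the dye, shape for the array, open symbols for spots marked non-uniform, and mean ± SD (n = 4). All of them are lowest at 18/1 5 hr, with means of 7.92 for Itga3, 10.84 for Itgb1, 8.84 for Itga9 and 8.80 for Itga5.

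After 2 hr of the 18/1 pattern, Itga3 and Itga7 had the largest differences, -0.73 and -0.41, and the other 4 members lay between -0.10 and 0.23. By limma 0 of the 6 members passed the test, and 1, Itga3, was under 0.05 before adjustment. Of all genes 0.0193% passed, 2 of 10355. The members' median difference was -0.04. Both conditions lay on slide 1, so the slide does not enter this comparison. The methods' t-test, which does not adjust over genes, called 1 member, Itga3, and 2.07% of all genes. A fit with array quality weights called Itga3 and Itga7, at -0.94 and -0.60, and 15.5% of all genes. Same-numbered samples of these conditions deviated together, and a fit of them alone with the replicate number as a block called 1 member, Itga3 (-0.73, adjusted p = 0.0423, lower in 4 of 4 pairs), and 2% of all genes, 207. Any pairing gives 4 of 4 for Itga3, since its samples did not overlap between these conditions. Without the block the same 8 samples gave an adjusted p of 0.162 for Itga3 and 14 genes called.

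At 18/1 5 hr the median difference of the 6 members was -0.70 and that of all genes -0.23. The change of a gene relative to all genes depends on the scaling, since centring each sample on its median moved the median of all genes to -0.81. Relative to the median of all genes, and over 5 ways of scaling or background treatment, Itga3 lay between -2.31 and -1.82, Itgb1 between -1.61 and -1.46, and Itga9 between -0.75 and -0.59, while Itga6 lay above it, between 0.56 and 0.69. Itga7 and Itgb5 changed sign on that scale, from -0.35 to 0.40 and from -0.43 to 0.21. The values of Itga7 are fitted and not exact, since some of its 18/1 5 hr spots were saturated. Marker lists of other cells also differed between these conditions. The summed log2 signal of 8 fibroblast markers was 16.1 to 16.3 at 18/1 5 hr and 14.1 to 15.5 in unstimulated neurons, and that of 4 endothelial markers was 9.39 to 9.89 and 11.2 to 11.7. The fibroblast sum is carried by the collagens, Col1a1 with 3 of 4 spots saturated, and while 6 of the 8 means were higher, Pdgfra was at 7.15 and 7.35 and Twist1 at 7.41 and 8.03. The endothelial sum is mostly that of Kdr, at 8.93 and 11.19, the 1 of the 4 well above background in all 20 samples. The means of Pecam1, at 6.76 and 8.10, and Cdh5, at 6.69 and 7.37, were lower as well, so 3 of 4 were lower, while Tek was at 6.58 and 6.45. The 16 neuronal markers summed to 19.1 to 19.7 and 19.5 to 19.6, and the 10 Schwann and satellite cell markers, of which Erbb3 was not well above background in any sample, to 15.6 to 16.7 and 16.3 to 16.4. The 9 spinal cord markers summed to 10.5 to 11.8 and 10.2 to 10.4, with the means of 5 of them higher at 18/1 5 hr, most so Aqp4 at 10.21 and 7.28, and of 4 lower, most so Gfap at 6.81 and 7.56, and the 5 macrophage markers to 11.4 to 11.9 and 11.3 to 11.6. The part of these cells, of the non-uniform spots and of the slide in the integrin differences was not tested.

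For the 90/5 pattern at 2 hr, 1 of 6 members fell, Itga3, against 6.97% of all genes called, 3.39% lower. The other 5 members had differences between -0.54 for Itga9 and 0.10 for Itga6, and the members' median was -0.47 against -0.08 for all genes. The summed endothelial markers were 10.01 to 10.98 at 90/5 2 hr and 11.2 to 11.7 in unstimulated neurons, without overlap, and their part in the difference was not tested. Kdr, which makes up most of that sum, was at 9.96 and 11.19. Pecam1 and Cdh5 were lower as well, while Tek was at 7.12 and 6.45. At 90/5 5 hr, 0 of 6 members were called by limma and 0 were under 0.05 before adjustment. The methods' t-test called 1, Itga3, and 5.5% of all genes, and a fit with array quality weights called 1, Itga3, and 24.9% of all genes. By limma 0.0676% of all genes were called there. The median over members was -0.14, with Itga7 at 0.15 and Itga9 at 0.13 on the positive side and Itga3 lowest at -0.52. Neither the summed endothelial markers, at 11.9 to 12.6 and 11.2 to 11.7, nor the spinal cord markers, at 10.47 to 10.82 and 10.21 to 10.38, overlapped between 90/5 5 hr and unstimulated neurons, and their part was not tested. Of the endothelial markers Kdr was at 12.09 and 11.19 and Tek at 6.68 and 6.45, while Pecam1 was at 8.10 in both and Cdh5 at 7.01 and 7.37. Of the spinal cord markers Slc32a1 was at 9.04 and 7.62. Mnx1, Pax2 and Olig1 were higher too, while Chat, Olig2, Gfap, Aqp4 and Lhx3 were lower.

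**Figure D3:**
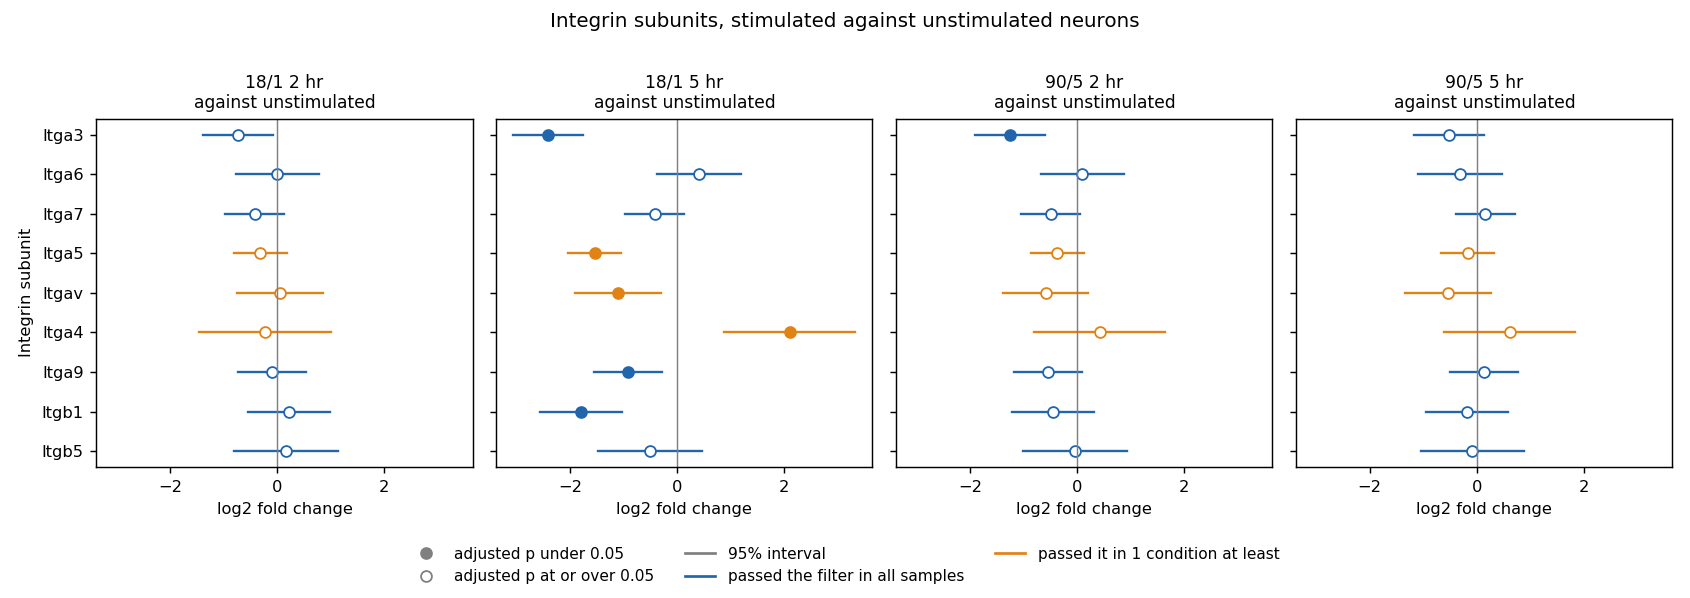
Log2 fold change of the 9 integrin genes tested, against unstimulated neurons in the 4 stimulated conditions, with 95% intervals from limma, filled points for an adjusted p under 0.05, and colour for the spot filter passed. Filled points are Itga3, Itgb1, Itga9, Itga5 and Itgav (lower) and Itga4 (higher) at 18/1 5 hr, and Itga3 (lower) at 90/5 2 hr. Itga5, Itgav and Itga4 passed the spot filter only through conditions other than 18/1 5 hr, so their points are fitted values and not read as tests.

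The patterns were then compared with each other at the same time. At 5 hr, Itga3, Itgb1 and Itga9 were higher after 90/5 than after 18/1, 3 of 6 members, and 0 were lower. Among all genes 45.4% passed this test, 29.6% higher and 15.8% lower. This comparison shares the 18/1 5 hr samples with the comparison against unstimulated neurons. The summed endothelial markers were 11.9 to 12.6 at 90/5 5 hr and 9.39 to 9.89 at 18/1 5 hr, and the summed fibroblast markers 14.4 to 15.5 and 16.1 to 16.3, and their part in the differences was not tested. Of the fibroblast markers Pdgfra, at 7.23 and 7.15, and Twist1, at 7.89 and 7.41, went the other way. Itga3 differed by 1.88 (SE 0.31, 95% interval 1.23 to 2.53, adjusted p = 8.43e-05), and all 90/5 samples were above all 18/1 samples. The brighter Itgb1 probe differed by 1.59 (SE 0.37, adjusted p = 0.0016) with 1 overlapping sample, and without that sample, the Cy3 sample of array 10, it differed by 1.89 (adjusted p = 6.13e-05). The second Itgb1 probe differed by 0.15 (95% interval -0.41 to 0.71, adjusted p = 0.688), with overlap. Itga9 differed by 1.04 (SE 0.31, adjusted p = 0.00888) without overlap, but by 0.66 without array 5 (adjusted p = 0.0927) and by 0.83 without array 10 (adjusted p = 0.122). Itga7, with 2 of its 4 spots at 18/1 5 hr saturated, differed by a fitted 0.57 (adjusted p = 0.0854) and passed without array 7 (0.0452) or the Cy3 sample of array 9 (0.0282) and with the GC trend removed (0.73, adjusted p = 0.0295). The tested Itga6 probe differed by -0.73 (adjusted p = 0.116) and passed without array 5 (-1.13, adjusted p = 0.0214) or its Cy5 sample (-0.90, adjusted p = 0.0422). The median over members was 0.81 and over all genes 0.23.

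With the filter within a condition, the fitted difference of Itga5 at 5 hr was 1.36 (SE 0.24), with the samples after 90/5 above those after 18/1 and no overlap. In that fit 23.9% of genes were higher, a share that Itga5, for the reason given above, is not read against. The brighter Itga4 probe differed by -1.50 (adjusted p = 0.0503), and by -2.71 without array 6 (adjusted p = 0.000415), where the 18/1 5 hr value rests on the 2 spots of array 5, both marked non-uniform. It also passed without array 7, 8 or 10, without either sample of array 6 and without the Cy3 sample of array 10, with an adjusted p of 0.0292 to 0.0411. The brighter Itgav probe differed by 0.56 (adjusted p = 0.263), and by a fitted 1.02 without array 6 (adjusted p = 0.0183), which leaves at 18/1 5 hr only the array 5 pair that was not well above background, so that it is no exact fold. In the fit of every probe, 13.1% of probes were lower after 90/5. The second Itga6 probe was among them at -1.19 (adjusted p = 0.0191) without overlap. The second Itgav probe also had a call in that fit (adjusted p = 0.0208), with overlap. That call is not read as a test or against that share, because of the way the probe passed the filter. The second Itgav probe was not well above background in any 90/5 5 hr sample. On the mean of its 4 spots at 18/1 5 hr, its bound is at least 3.42-fold higher there, and the high values are the 2 marked spots of array 5.

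At 2 hr no member differed between the patterns by limma, 0 of 6, with 0 under 0.05 before adjustment, against 4.96% of all genes called. The methods' t-test called 1, Itgb1, and 16.8% of all genes. Itgb1 was -0.68 and Itga3 -0.52 in 90/5 relative to 18/1, with overlapping samples. Without array 7, Itga3 was -0.95 (adjusted p = 0.0287). The conditions lay on slides 2 and 1. The summed endothelial markers were 10.01 to 10.98 after 90/5 and 11.02 to 11.56 after 18/1, and their part was not tested. Kdr was at 9.96 and 10.89, and Pecam1 and Cdh5 were lower as well, while Tek was at 7.12 and 6.43.

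Conditions 90/5 2 hr and 18/1 5 hr differ in pattern and in time but lay on the same slide. Here 2 of 6 members were higher at 90/5 2 hr, Itga3 by 1.15 (adjusted p = 0.022) and the brighter Itgb1 probe by 1.34 (adjusted p = 0.0234), against 12.9% of all genes called, 10.2% higher. The second Itgb1 probe differed by 0.41 (95% interval -0.15 to 0.97, adjusted p = 0.333). In the fit with the filter within a condition, 5.79% of genes were higher, and the fitted difference of Itga5, not read against that share, was 1.17. Its call there (adjusted p = 0.00763), which is not read as a test, was lost when the 8 samples alone were fitted (0.548). It was also lost under the methods' t-test after adjustment (0.231). For the probes called, the 4 samples of 90/5 2 hr lay above the 4 of 18/1 5 hr. The summed endothelial markers also did not overlap, at 10.01 to 10.98 and 9.39 to 9.89, and their part was not tested. Without array 6, Itga4 was -2.90 (adjusted p = 0.000481) and Itgav 0.98 (adjusted p = 0.0338), and Itga4 was -2.43 without array 8 (adjusted p = 0.0158), against -1.68 (0.0759) and 0.52 (0.4) with all arrays. These are fitted values and no exact folds, since without array 6 the 18/1 5 hr samples of Itga4 were both marked non-uniform, and since without array 8 the 90/5 2 hr samples of Itga4, and without array 6 the 18/1 5 hr samples of Itgav, were not well above background. When only these 8 samples were fitted, the differences were the same and 0 of 10355 genes passed. Leaving out arrays 1, 5, 7 or the Cy5 sample of array 10 took the adjusted p of Itga3 to 0.051, 0.0518, 0.274 and 0.0582. For Itgb1, leaving out array 1, 3, 4, 5 or 7 took it to 0.0518, 0.0532, 0.054, 0.157 and 0.268.

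**Figure D4:**
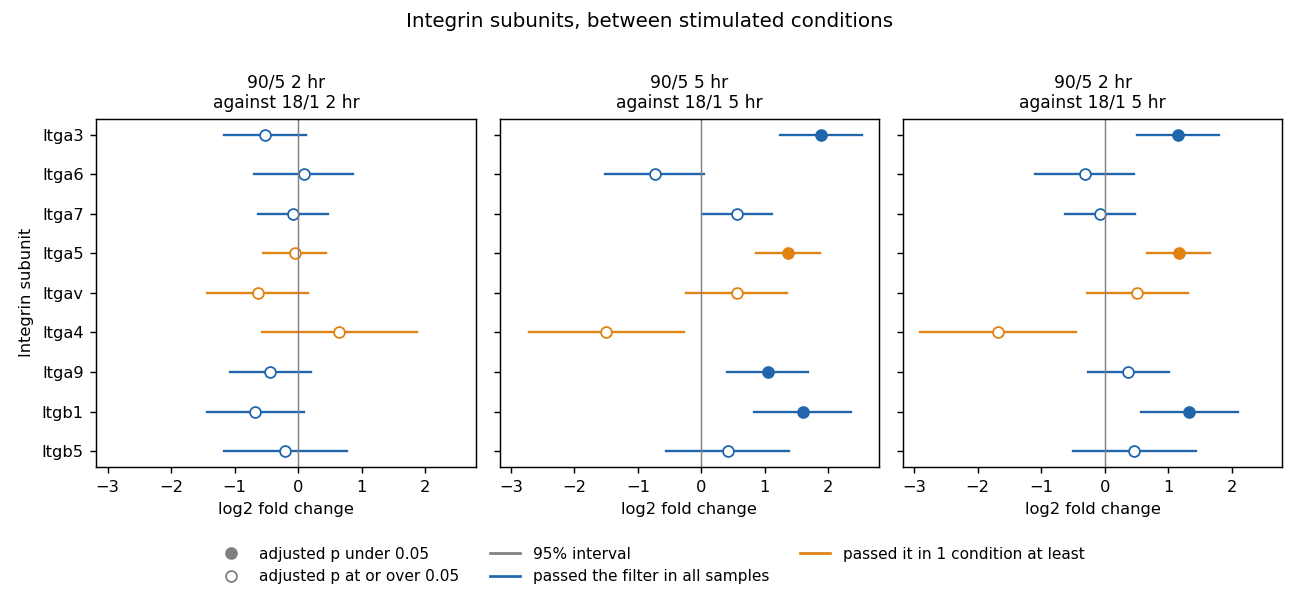
Log2 fold change of the 9 integrin genes tested, for 90/5 against 18/1 at each time and for 90/5 2 hr against 18/1 5 hr, with 95% intervals from limma, filled points for an adjusted p under 0.05, and colour for the spot filter passed. At 5 hr the filled points are Itga3, Itgb1, Itga9 and Itga5, all higher after 90/5, and at 2 hr there are none. Itga5 passed the spot filter only through conditions where it was brighter than at 18/1 5 hr, so its points are fitted values and not read as tests.

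Other genes of the adhesion pathway were described from lists. Of 18 further integrin subunits 5 passed the filter, and at 18/1 5 hr 2 of them fell, against 29.5% of all genes, Itgb2, the beta subunit of leukocyte integrins, by a fitted 1.08 (adjusted p = 0.00387) and its partner Itgax by a fitted 0.78 (adjusted p = 0.0199). In that condition Itgb2 was well above background in 3 of 4 samples and Itgax in 2 of 4, so these are no exact folds. Their median was -0.47. Of 40 adaptors and kinases 26 were tested, of which 5 rose and 7 fell, against 15% and 29.5% of all genes, with a median of -0.11. Ptk2b, a kinase related to focal adhesion kinase, rose by 1.99 (adjusted p = 0.000119), from a mean of 7.98 to 9.97. Vasp, which promotes actin filament growth at adhesions, fell by 1.89 (adjusted p = 1.81e-05), from 10.32 to 8.43. Vinculin, Vcl, fell by 1.34 (adjusted p = 0.0463).

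Of the matrix ligands 21 were tested at 18/1 5 hr, and 1 rose while 6 fell, against the same 15% and 29.5% of all genes, with a median of 0.08. Col1a1, a chain of type I collagen and also a fibroblast marker, was the 1 that rose, by a fitted 1.79 (adjusted p = 0.00801) that is no exact fold, since 3 of its 4 spots at 18/1 5 hr were saturated. Col6a2 fell by 1.72 (adjusted p = 3.26e-05) and Col4a2, of basement membranes, by 1.05 (adjusted p = 0.0015). Against unstimulated neurons no gene of these 3 lists was called at 18/1 2 hr or at 90/5 5 hr, where 0.0193% and 0.0676% of all genes were. At 90/5 2 hr 2 of 26 adaptors fell, against 3.39% of all genes, Vasp by 1.01 and Git2 by 0.88. Between the patterns at 5 hr, 5 adaptors were higher and 6 lower after 90/5, against 29.6% and 15.8% of all genes, with Ptk2b at -1.70, Vasp at 1.49 and Lims2, a partner of integrin-linked kinase, at 1.22. Of the ligands 5 were higher and 3 lower, with Col1a1 at a fitted -1.81, its 18/1 5 hr spots being saturated as above, Fbn1 at -1.48 and Col6a2 at 1.47, and of the further subunits Itgb2 was higher by a fitted 1.26. Between the patterns at 2 hr, where 4.96% of all genes were called, Bcar1 was higher by 0.98 and Git2 lower, at -0.82. At 90/5 2 hr against 18/1 5 hr, where 12.9% of all genes were called, the adaptors called were Ptk2b at -1.65, Tgfb1i1 at 1.08 and Vasp at 0.88, and the ligands called were Col6a2 at 1.16 and Col4a2 at 1.08.

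Promoters are shown for the 3 members that fell at 18/1 5 hr in the test over all genes. They are the 250 bases upstream of the RefSeq start in GRCm38.p6, on the strand of the gene, with motif letters in capitals, and 8 of the 10 members had 1 or more of 9 such windows.
Itga3, chr11:95076715-95076964, minus strand: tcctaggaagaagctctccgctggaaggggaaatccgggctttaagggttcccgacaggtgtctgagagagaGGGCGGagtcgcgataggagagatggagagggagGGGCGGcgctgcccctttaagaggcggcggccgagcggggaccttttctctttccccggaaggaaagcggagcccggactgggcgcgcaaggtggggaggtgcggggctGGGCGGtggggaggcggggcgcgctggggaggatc
Itgb1, chr8:128685404-128685653, plus strand: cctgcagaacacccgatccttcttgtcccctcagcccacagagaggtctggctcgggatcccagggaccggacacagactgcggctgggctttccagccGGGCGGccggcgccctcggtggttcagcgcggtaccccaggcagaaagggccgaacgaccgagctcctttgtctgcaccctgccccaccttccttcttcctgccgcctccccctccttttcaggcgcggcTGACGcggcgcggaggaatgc
Itga9, chr9:118711442-118711691, plus strand: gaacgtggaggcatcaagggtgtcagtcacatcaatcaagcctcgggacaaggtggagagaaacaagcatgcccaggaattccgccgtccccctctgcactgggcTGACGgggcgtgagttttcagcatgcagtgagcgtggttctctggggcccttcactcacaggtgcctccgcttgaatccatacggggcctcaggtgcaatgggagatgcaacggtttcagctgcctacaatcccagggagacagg
Letters were searched on both strands. The cAMP response element TGACGTCA was in 1.55% of 32851 promoters and in 0 of the 9 windows, and its shorter form TGACG, which lies inside it, in 17.8% and in 2 of 9, Itga9 and Itgb1. The GC box GGGCGG was in 32.7% and in 6 of 9, with 3 in the Itga3 window shown, and the AP-1 site TGANTCA in 6.75% and in 0 of 9. Another Itga3 window, chr11:95069199-95069448 on the minus strand, is not shown. It had 1 GC box and is among the 6, so these windows are not 6 genes. The 9 windows had 50.8 to 68% GC, against a median of 52.4% over all promoters. These are matches of letters only, and the windows of Itga6 and Itga7 were not analysed here.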

How the data were processed

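The authors deposited, for each spot and colour, the mean intensity and the median intensity of the local background, on a linear scale and not normalized, extracted with Agilent Feature Extraction 10.7.1.1 (slide 1) or 10.7.3.1 (slides 2 and 3). Of the other columns, 36 per colour were not used, while the scanner software's marks for saturation, for uneven spots and for signal well above background were taken over unchanged. Computing used limma 3.58.1 in R 4.3.3, with tables handled by the data.table package, version 1.17.8. Background was subtracted by normexp with an offset of 50, colours were normalized by loess within arrays and arrays scaled by Aquantile. A spot was kept when, in all 20 samples, it reached 2 times its background and was not marked non-uniform, and each gene name was represented by its brightest probe, which left 10355 genes. The model had a mean per condition, a colour term and the array as a random block (correlation 0.529), with empirical Bayes moderation and Benjamini-Hochberg adjustment over all genes per comparison at 0.05. Members that failed the filter were taken from fits that apply it within a condition (all 4 of its samples, for 1 or more conditions), over 18744 genes or 23905 probes. With 4 samples on 2 arrays per condition, the number of arrays limits the precision. The fit was also run on simulated data, with an outcome that is not reported here. For the figures, matplotlib 3.10.9 and numpy 2.4.6 were used under Python 3.11.15.

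The genes named are every member with every probe and, per list and comparison, the up to 3 called genes with the largest difference. The members and lists were chosen with earlier results of these data known. Alternatives were no background subtraction, quantile normalization, median centring, other filters, leaving out saturated probes, every probe, no array block, fewer samples in the fit, array quality weights, the methods' t-test (unequal variances, linear signals, p under 0.05, with a fold over 1.4 and over 1 plus 2 times the pooled coefficient of variability, and without the methods' correction over spots of a transcript), raw and adjusted, a replicate block, and leaving out each array and each sample. The trend on GC content, the background rule alone, every probe with the filter within a condition, and the replicate block over unstimulated and 18/1 2 hr samples alone were chosen after seeing the data. For these 2 conditions the replicate numbers, which come from the labels, were taken to pair the samples, since the deviations of all 4 same-numbered pairs correlated, at 0.41 to 0.72, against 0.07 to 0.18 for other pairs of the same colour. Same-numbered samples also share the colour. The colour that held each replicate of 18/1 5 hr and 90/5 2 hr is described in more than 1 way by the labels, so values are given by array.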

Additional observations from a re-analysis of the deposited data

Results flagged for a closer look

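In 90/5 5 hr, the Cy3 sample of array 10 had an Itgb1 log2 signal of 11.43, far from the other 3 samples of that condition, which lay between 12.68 and 12.85. It was the only such sample in 50 groups tested, where chance gives about 1 in 20.

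Differences between the patterns at 5 hr passed limma's test of the difference itself for 3 of 6 members in the fit of 10355 genes, where 29.6% of genes were higher after 90/5, by 1.88 for Itga3, 1.04 for Itga9 and 1.59 for the brighter Itgb1 probe. Itga5 had a fitted difference of 1.36 in the fit with the filter within a condition, which it passed only through conditions where it was brighter than at 18/1 5 hr. The second Itgb1 probe differed by 0.15 (limma, adjusted p = 0.688). The slides differ between these conditions, and slide and pattern cannot be told apart.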

How the results depend on the processing

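Counts of members called are compared with those given above. At 18/1 2 hr, array quality weights gave 2 and the methods' t-test 1, against 0, with 15.5% and 2.07% of all genes called. At 18/1 5 hr the filter within a condition gave 6 (36.8% of all genes) and, with every probe, 7 (37% of all probes). These counts are not set against the 3 of 6 or these shares, because Itga5, Itgav and Itga4 passed that filter only through other conditions. Leaving out an array or sample gave 2 to 3. At 90/5 2 hr, no filter gave 0 (1.63% of all genes), the t-test 3 (20.5%) and its adjusted form 0 (0.599%), against 1 (6.97%), and leaving out an array or sample gave 0 to 1. At 90/5 5 hr, weights and the t-test each gave 1 (Itga3), against 0, with 24.9% and 5.5% of all genes called. Between the patterns at 2 hr the t-test gave 1 (16.8% of all genes) and leaving out an array or sample 0 to 1, against 0. Between the patterns at 5 hr, no array block gave 5 of 6 (59.9% of all genes) against 3 of 6 (45.4%), and leaving out gave 2 to 4. Every probe with the filter within a condition gave 6 (38.2% of all probes), likewise not set against the 3. For 90/5 2 hr against 18/1 5 hr, no filter gave 1 (Itga5), weights and the t-test each 1 (Itgb1), with 6.24%, 9.79% and 16.6% of all genes called, the adjusted t-test and the fit of these 8 samples 0 (0 genes each), against 2 (12.9%), and leaving out gave 0 to 2. Itgav turned to a fitted 1.87 at 18/1 5 hr and -1.79 between the patterns at 5 hr when every probe was tested, both being values of its second probe. The bounds given for that probe, 3.65-fold and 3.42-fold, rest on its mean at 18/1 5 hr, where the high values are the 2 marked spots of array 5. They do not hold for the array 6 spots, at 6.90 and 6.96, and the calls of that probe are not read as tests. Single calls were also lost with no filter, with adjusted p of 0.0871 for Itga9 and 0.0766 for Itgav at 18/1 5 hr, 0.112 for Itga3 at 90/5 2 hr, 0.0503 for Itga9 between the patterns at 5 hr, and 0.0802 for Itga3 and 0.0984 for Itgb1 for 90/5 2 hr against 18/1 5 hr. Under the adjusted t-test they were lost for Itga4 at 18/1 5 hr (0.226, also lost before adjustment), Itga3 at 90/5 2 hr (0.0716), Itgb1 between the patterns at 5 hr (0.0725) and Itga5 for 90/5 2 hr against 18/1 5 hr (0.231), and Itgav at 18/1 5 hr was lost when its 2 conditions alone were fitted (0.0572). Median centring added calls for Itgb5, at -1.23 (adjusted p = 0.0164) at 18/1 5 hr, 1.32 (0.0096) between the patterns at 5 hr and 1.37 (0.0115) for 90/5 2 hr against 18/1 5 hr. Between the patterns at 5 hr, calls were also added for Itga7, which had 2 saturated spots at 18/1 5 hr, with the GC trend removed (0.73, 0.0295), and for Itga6 (0.0225), Itga7 (0.0109) and Itga4 (0.0289) with no array block. Of 983 values under other settings 936 stayed on their side of the threshold, 915 of them with the same direction, and of 1890 with an array or sample left out 1848 and 1800 did. The replicate block over 3 conditions gave 0 members at 18/1 2 hr (0.0676% of all genes) and 0 at 90/5 5 hr (3.47%) against unstimulated neurons. The replicate block over unstimulated and 18/1 2 hr samples alone gave 1 (Itga3) at 18/1 2 hr (2% of all genes), against 0. In the comparisons with 90/5 5 hr, same-numbered deviations correlated between -0.05 and 0.65, so the numbers were not taken to pair those samples.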
